A study of Homo sapiens with 6 samples.

Results

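The genes described here are the 4 Notch receptors (NOTCH1, NOTCH2, NOTCH3 and NOTCH4), 5 of their ligands (DLL1, DLL3, DLL4, JAG1 and JAG2) and the coactivator MAML2. They were chosen by gene symbol, and 11 rows of the 31814 in the table carry one of the 10 symbols, because JAG1 is listed under 2 identifiers. Polyadenylated RNA of the human cell line H69 was sequenced in 3 libraries of cells given DMSO alone (vehicle) and in 3 of cells given 1 µM trichostatin A (TSA), each for 24 h. TSA inhibits histone deacetylases, the enzymes that take acetyl groups off histones and other proteins. One tag of the treated samples spells the agent HSA, and they are called TSA here because the protocol and the study's design do so. No genotype or added transgene is given for either group. Whether replicate libraries stem from separate cultures is not stated, and the p-values then cover no more than the differences among these libraries, possibly technical ones.

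Notch receptors are single-pass membrane proteins that bind Delta-like or Jagged ligands on a neighbouring cell. Ligand pulling exposes the receptor to ADAM proteases and then to gamma-secretase, and the freed intracellular part joins RBPJ and a Mastermind protein such as MAML2 on target genes, among them HES and HEY repressors. A ligand in the same cell as a receptor can also hold that receptor inactive, and DLL3 is known for this inhibitory role. In neuroendocrine cells of the lung, Notch activity is known to hold the neuroendocrine programme back, and DLL3 is a known surface target on small cell lung cancer.

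No tissue is labelled, and both a small cell lung cancer line and a bile duct line go by the name H69. Of 13 neuroendocrine markers 12 were at 1 TPM (the level scaled to transcript length and to the library's total) or more in all 3 vehicle libraries, with INSM1 at 614 TPM, DDC at 255 TPM and SYP at 140 TPM on average. Markers of bile duct were mixed, with EPCAM at 600 TPM and KRT19 at 208 TPM but CFTR at 0.0941 TPM in vehicle. The bile duct list summed to 861 to 1054 TPM in vehicle and to 380 to 488 TPM in TSA, with 3 of 9 tested rows higher and 4 lower. The neuroendocrine markers summed to 2524 to 2948 TPM in vehicle and to 1228 to 1334 TPM in TSA, with 3 of 12 tested markers higher and 8 lower. The 6 listed endothelial markers summed to 0.900 to 1.43 TPM in vehicle and to 5.74 to 7.15 TPM in TSA, most of the latter ESAM, while KDR and CDH5 were at or under 0.112 TPM in every library. The sum of 8 mesenchymal markers went from 5.98 to 8.52 TPM up to 22.7 to 25.1 TPM, and that of 7 leukocyte markers from 5.08 to 6.48 TPM up to 8.98 to 11.7 TPM. The part of these shifts in the Notch results was not tested. Libraries held 22739044 to 26387303 whole reads, recovered from the TPM values. Mitochondrial genes took 4.97% to 16.9% of the TPM, and the replicate 1 library was the highest in each group.

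In vehicle the level of JAG1 was the highest of the set, at 77.8 ± 4.94 TPM (mean ± SD, n = 3 for this and every group mean below). DLL1, DLL3, JAG2 and MAML2 followed at 36.8 to 25.0 TPM, then NOTCH2 at 13.0 ± 3.59 TPM and DLL4 at 2.60 ± 0.378 TPM. The other receptors were lower still, NOTCH1 at 0.830 ± 0.210 TPM, NOTCH4 at 0.564 ± 0.0618 TPM and NOTCH3 at 0.145 ± 0.0515 TPM. The ranges of DLL1 and DLL3 overlapped, as did those of JAG2 and MAML2, and all other neighbours in this order were apart. These orders leave out the other JAG1 row. In TSA the order was JAG1, NOTCH2, DLL3, JAG2, NOTCH1, MAML2, DLL4, NOTCH3, DLL1 and NOTCH4. In TSA NOTCH2 overlapped DLL3, and from NOTCH1 down to DLL1 each gene overlapped the next, although NOTCH1 lay wholly above DLL4, NOTCH3 and DLL1.

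**Figure D1:**
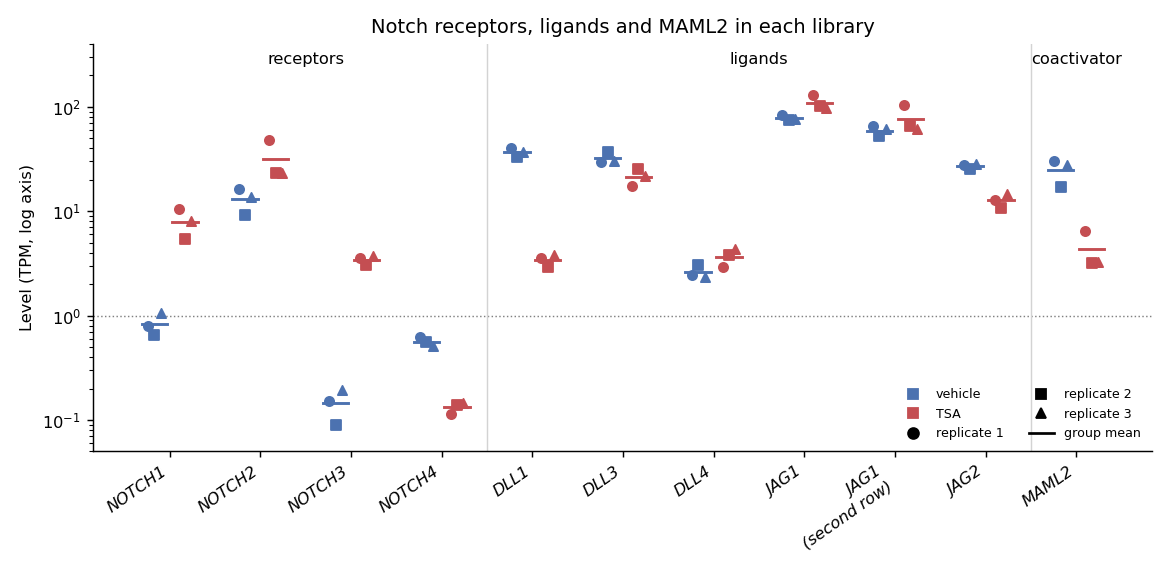
Level of each gene in each library (TPM, log axis), with vehicle in blue, TSA in red, a marker shape for each replicate number and a line at each group mean. The dotted line marks 1 TPM. NOTCH1, NOTCH2, NOTCH3 and JAG1 sit higher in TSA, while NOTCH4, DLL1, DLL3, JAG2 and MAML2 sit lower.

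The test was limma on log2(TPM + 1), fitted over the 17596 genes that reached 1 TPM in at least 3 libraries, with Benjamini-Hochberg adjustment over all of them and a threshold of 0.05. It called 62.2% of all tested genes, 28.0% higher and 34.2% lower in TSA. Of the 11 rows 10 were tested, of which 4 were higher, 4 were lower and 2 did not pass. Among the higher rows, NOTCH1 reached 1 TPM in 1 vehicle library and NOTCH3 in 0, so both passed the filter only with their TSA values. With a filter of 5 TPM 3 rows were higher and 4 lower. The median log2 fold change was 0.35 over these 10 rows and −0.095 over all tested genes. A median-of-ratios scaling moved the median of all genes by 0.12 and a quantile scaling moved it by 0.10, and the rows then had medians of 0.47 and 0.43. In 8 of the 10 tested rows the ranges of the 3 TSA and the 3 vehicle libraries were apart, which was also so for 67.0% of all tested genes. Since most of the transcriptome passed the test, passing it does not set these genes apart, and the account below is of which of them moved and by how much. In bulk RNA a change in the share of cells with a transcript and a change in its amount per cell cannot be told apart.

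NOTCH1, NOTCH2 and NOTCH3 rose in TSA, and the level of NOTCH4 was lower. NOTCH1 (ENSG00000148400.9), a receptor used in many tissues, was at 0.788, 0.645 and 1.06 TPM in vehicle libraries 1, 2 and 3 and at 10.4, 5.43 and 7.98 TPM in TSA libraries 1, 2 and 3. The lowest TSA value lay above the highest vehicle value, and TSA replicate 1 was the highest. The ratio of mean TPM was 9.55, and the log2 fold change was 2.25 ± 0.24 (± standard error here and below) on the log2(TPM + 1) scale (limma adjusted p 2.4e-04). NOTCH1 was under 1 TPM in vehicle libraries 1 and 2, so it entered the test only through its TSA values. Entry by this route favours genes that are higher in TSA, so the call adds little to the values themselves. The NOTCH1 values rest on 40 to 74 recovered reads per vehicle library and 400 to 744 per TSA library.

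NOTCH3 (ENSG00000074181.4), a receptor best known from vascular smooth muscle, was at 0.153, 0.0905 and 0.193 TPM in vehicle and at 3.54, 3.06 and 3.72 TPM in TSA. The TSA libraries lay close together, and the groups were far apart. Mean TPM was 23.7 times higher in TSA, the greatest ratio of the set. The recovered reads were 9, 5 and 12 in vehicle and 226, 201 and 232 in TSA. Because NOTCH3 was under 1 TPM in all vehicle libraries, it too entered the test only through its TSA values. Its log2 fold change was 1.95 ± 0.14 (limma adjusted p 5.2e-05). The added 1 compresses this value: with a pseudocount of 0.1 it was 3.87, and on recovered reads with limma's voom it was 4.66, against 3.08 and 3.35 for NOTCH1. Which of NOTCH1 and NOTCH3 changed more on a log scale therefore turned with the pseudocount.

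NOTCH2 (ENSG00000134250.13) was the receptor with the highest level in both groups. It was at 16.3, 9.18 and 13.6 TPM in vehicle and at 48.4, 23.4 and 23.1 TPM in TSA. The groups did not overlap, but TSA replicate 1 was far above the other 2 TSA libraries. The log2 fold change was 1.17 ± 0.33 (limma adjusted p 0.02), and the ratio of mean TPM was 2.43. The call ended without vehicle replicate 2 (limma adjusted p 0.058) and without vehicle replicate 3 (limma adjusted p 0.051), with 4.5e-05 to 0.058 over its 19 alternatives. NOTCH2NL (ENSG00000213240.7), a partial near-identical copy of NOTCH2, went from 2.11 ± 0.337 to 9.81 ± 1.62 TPM, and its log2 fold change was 1.79 ± 0.17 (limma adjusted p 1.6e-04). Reads common to both copies make each value uncertain.

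NOTCH4 (ENSG00000204301.5), a receptor mainly of endothelial cells, was at 0.630, 0.555 and 0.507 TPM in vehicle and at 0.113, 0.138 and 0.145 TPM in TSA. All TSA values lay under all vehicle values, at 41, 34 and 35 recovered reads in vehicle and 8, 10 and 10 in TSA. No library reached 1 TPM, so NOTCH4 was not in the test. Without the filter its log2 fold change was −0.47 ± 0.07 (limma adjusted p 0.0036), a small value because of the added 1, while mean TPM was 4.28 times higher in vehicle. The authors' deposited table gives NOTCH4 a log2 fold change of −2.01 and an FDR of 1.0e-05.

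The 250 bases before the annotated start of the 4 receptor genes are shown because 3 of these genes rose and the fourth was lower. They are RefSeq sequences of build GRCh38.p14, while the table was made on hg19. Each runs 5′ to 3′ along the gene, and capitals mark GGGCGG or its reverse complement CCGCCC, the GC box bound by SP1-family factors.
NOTCH1 (chr9:136546049-136546298, minus strand): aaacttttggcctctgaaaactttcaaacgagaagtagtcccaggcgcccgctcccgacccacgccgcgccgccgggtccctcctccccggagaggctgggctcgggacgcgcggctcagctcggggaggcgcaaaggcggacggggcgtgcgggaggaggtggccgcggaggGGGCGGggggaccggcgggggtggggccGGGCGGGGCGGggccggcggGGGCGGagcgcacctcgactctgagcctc
NOTCH2 (chr1:120069663-120069912, minus strand): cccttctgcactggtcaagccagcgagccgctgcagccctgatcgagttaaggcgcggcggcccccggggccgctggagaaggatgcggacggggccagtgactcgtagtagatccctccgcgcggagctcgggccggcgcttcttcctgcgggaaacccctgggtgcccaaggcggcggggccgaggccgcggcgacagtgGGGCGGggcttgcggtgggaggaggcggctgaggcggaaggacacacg
NOTCH3 (chr19:15200996-15201245, minus strand): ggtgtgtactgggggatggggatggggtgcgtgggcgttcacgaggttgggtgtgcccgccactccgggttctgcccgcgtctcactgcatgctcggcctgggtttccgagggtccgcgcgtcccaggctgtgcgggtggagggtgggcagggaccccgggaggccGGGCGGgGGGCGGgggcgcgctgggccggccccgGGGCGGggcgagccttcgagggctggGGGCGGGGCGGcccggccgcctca
NOTCH4 (chr6:32224068-32224317, minus strand): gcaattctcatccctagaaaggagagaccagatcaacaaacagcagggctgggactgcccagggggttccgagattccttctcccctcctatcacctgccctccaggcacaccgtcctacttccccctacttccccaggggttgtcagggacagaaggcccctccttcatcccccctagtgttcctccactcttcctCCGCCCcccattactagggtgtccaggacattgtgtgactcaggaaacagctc
The GC box letters were found 4 times for NOTCH1, 5 times for NOTCH3 and once each for NOTCH2 and NOTCH4, counting both strands and overlapping matches. The same letters were found 3 times for DLL4 and 2 times each for JAG1, JAG2 and MAML2. Of all 35116 promoters of this length 42.6% hold at least 1 match. The ratio of observed to expected CpG was 0.94 for NOTCH1, 0.90 for NOTCH2 and 0.80 for NOTCH3, against 0.16 for NOTCH4, which had 3 CpG in 250 bases. The median over all promoters was 0.56, and NOTCH4 lay at the 17.5th percentile. TGGGAA, the core letters of the RBPJ motif, and TTCCCA were not in this window for any of the 8 genes of the set with a promoter, and 20.8% of all promoters hold them. DLL1 and DLL3 had no entry. For the other genes that ratio was 0.92 for JAG2, 0.72 for DLL4, 0.59 for JAG1 and 0.51 for MAML2. The value of JAG2, which fell, lay in the range of the 3 receptors that rose. Whether promoter sequence had a part in any of these changes was not tested.

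**Figure D2:**
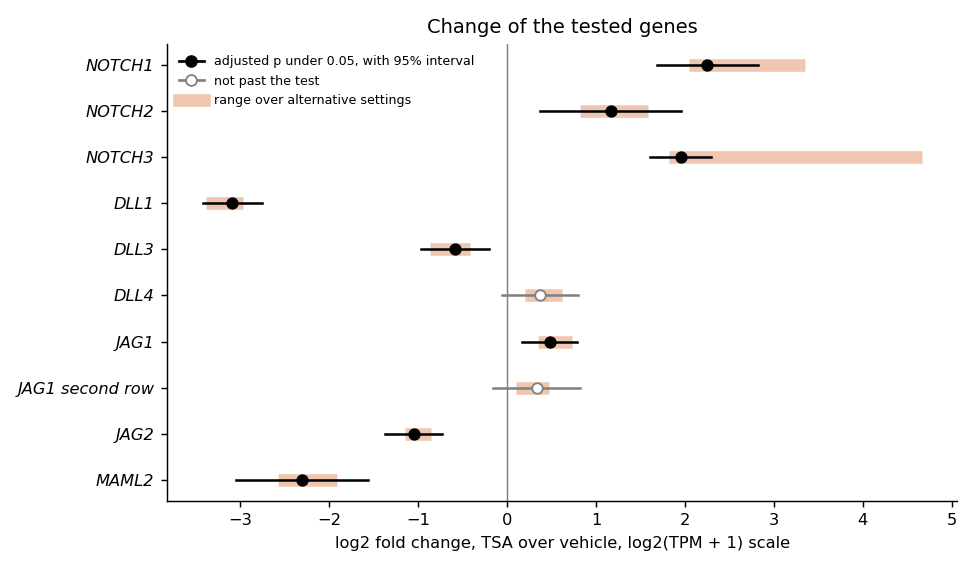
Log2 fold change of each tested row, TSA over vehicle on the log2(TPM + 1) scale, with its 95% interval (line) and the range over the alternative settings (band, which takes in other pseudocounts and the log2 read scale of voom). Filled points passed the test. The bands of NOTCH1 and NOTCH3 reach 3.35 and 4.66, and those of DLL1, JAG2 and MAML2 stay below 0.

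Among the Delta-like ligands DLL1 and DLL3 fell, and DLL4 did not pass the test. DLL1 (ENSG00000198719.7), a ligand that activates receptors on neighbouring cells, was at 40.4, 33.3 and 36.7 TPM in vehicle and at 3.56, 2.92 and 3.83 TPM in TSA. The groups were far apart, with little spread within either. The log2 fold change was −3.09 ± 0.14, with a 95% interval of −3.42 to −2.76 (limma adjusted p 1.1e-05). Of all tested genes 1.05% had a lower log2 fold change. Over 19 alternatives its value ran from −3.39 to −2.97, and it passed the test in each of them.

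DLL3 (ENSG00000090932.6), the inhibitory ligand, was at 29.9, 37.3 and 30.6 TPM in vehicle and at 17.5, 25.3 and 21.7 TPM in TSA. The groups did not overlap, but the gap between the highest TSA and the lowest vehicle library was smaller than the range within either group. The log2 fold change was −0.59 ± 0.16 with a 95% interval of −0.97 to −0.20 (limma adjusted p 0.017), and the call was lost in 4 of 19 alternatives. These were a median-of-ratios scaling (limma adjusted p 0.093), a quantile scaling (0.13), voom on recovered reads (0.053) and the fit without vehicle replicate 2 (0.053). The authors' deposited table gives an FDR of 0.06 for DLL3. As a result of these unequal changes DLL1 made up 45.2% to 55.5% of the summed Delta-like TPM in the vehicle libraries and 9.10% to 14.8% in the TSA libraries, and DLL3 72.7% to 79.0% in TSA.

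DLL4 (ENSG00000128917.5), a ligand with a central role in endothelial cells, was at 2.44, 3.04 and 2.33 TPM in vehicle and at 2.89, 3.81 and 4.34 TPM in TSA. The groups overlapped, as vehicle replicate 2 lay above TSA replicate 1. The log2 fold change was 0.37 with a 95% interval of −0.06 to 0.80 (limma adjusted p 0.12). It passed without TSA replicate 1 (limma adjusted p 0.041) and with voom on recovered reads (limma adjusted p 0.046), with 0.041 to 0.34 over its 18 alternatives.

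The Jagged ligands moved in opposite directions. JAG1 (ENSG00000101384.7) was at 83.4, 74.1 and 75.9 TPM in vehicle and rose to 130, 102 and 97.0 TPM in TSA. The groups did not overlap, with TSA replicate 1 above the rest. The log2 fold change was 0.48 ± 0.13 (limma adjusted p 0.016), a call that ended without vehicle replicate 3 (limma adjusted p 0.057, with 2.0e-04 to 0.057 over 20 alternatives). JAG2 (ENSG00000184916.4) was at 27.8, 25.6 and 28.5 TPM in vehicle and fell to 12.8, 10.8 and 14.7 TPM in TSA. Its groups were far apart, with a log2 fold change of −1.05 ± 0.13 (limma adjusted p 5.7e-04). JAG2 passed in each of its 19 alternatives. In GENCODE 29 a non-coding gene on the same strand, AL512356.1, overlaps 7.3% of the exon bases of JAG2. It went from 43.6 to 19.1 TPM on average, so reads of these genes may be mixed.

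The other row named JAG1 has the identifier ENSG00000270408.1, which did not match GENCODE 29. Its length in the authors' TPM calculation was 9.03% of that of the main JAG1 row, so few reads gave it a high TPM. It was at 64.8, 52.4 and 60.7 TPM in vehicle and at 103, 65.6 and 61.4 TPM in TSA, from 187 to 246 reads per vehicle library and 247 to 424 per TSA library. The groups overlapped, and the log2 fold change was 0.33 with a 95% interval of −0.16 to 0.82 (limma adjusted p 0.20). A median-of-ratios scaling brought it past the test (limma adjusted p 0.045, with 0.045 to 0.46 over 18 alternatives). The row held 5.40% to 6.73% of the reads of both JAG1 rows in each library. When both rows were merged, which was decided after their values were known, JAG1 had a log2 fold change of 0.47 (limma adjusted p 0.02).

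Summed over the ligands, with the main JAG1 row alone, the level was 173 to 184 TPM in vehicle and 142 to 167 TPM in TSA. Summed over the receptors it was 10.5 to 17.9 TPM in vehicle and 32.1 to 62.4 TPM in TSA. Ligand transcripts outnumbered receptor transcripts by 10.3 to 16.6 in the vehicle libraries and by 2.67 to 4.51 in the TSA libraries. JAG1 held 42.7% to 45.3% of the ligand TPM in vehicle and 68.5% to 78.0% in TSA, while DLL1 went from 19.2% to 22.0% down to 2.01% to 2.70%. Among receptors NOTCH2 held 87.7% to 91.2% in vehicle and 66.1% to 77.6% in TSA. NOTCH1 and NOTCH3 held 16.6% to 22.8% and 5.66% to 10.7% of the receptor TPM in TSA. These sums and shares are descriptions with no test.

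**Figure D3:**
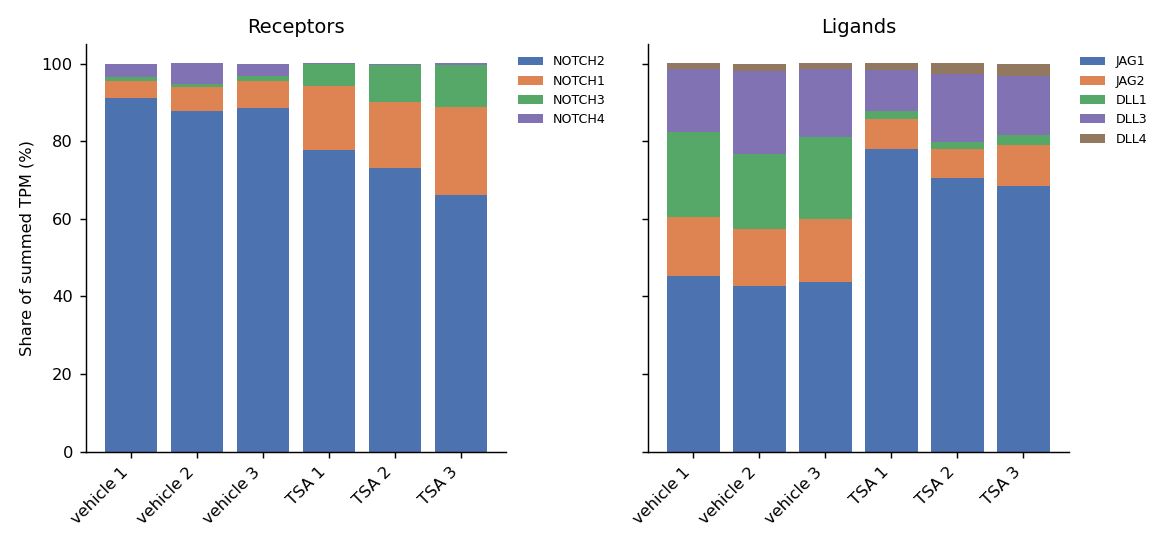
Share of each receptor in the summed receptor TPM (left) and of each ligand in the summed ligand TPM (right), in percent, with a bar for each library. In TSA the NOTCH1 and NOTCH3 shares are wider, the JAG1 share reaches 68.5% to 78.0%, and the DLL1 share is at most 2.70%.

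MAML2 (ENSG00000184384.9), a Mastermind coactivator of the Notch and RBPJ complex, was at 30.4, 17.0 and 27.7 TPM in vehicle and at 6.49, 3.21 and 3.24 TPM in TSA. All TSA libraries lay well under all vehicle libraries. The log2 fold change was −2.31 ± 0.31 (limma adjusted p 6.9e-04), and it ran from −2.58 to −1.91 over 19 alternatives, past the test in each. MAML1, its paralog, went from 40.0 ± 6.52 to 18.1 ± 5.50 TPM (log2 fold change −1.12, limma adjusted p 0.0046). MAML2 stood at 0.522 to 0.698 of the level of MAML1 in vehicle and at 0.197 to 0.267 in TSA. MAML3 had a log2 fold change of −0.28 (limma adjusted p 0.3).

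NOTCH2 and MAML2 varied more among libraries of a group than the ligands did. The coefficient of variation of their TPM was 27.6% and 28.4% in vehicle and 45.9% and 43.7% in TSA, against 5.60% to 14.5% for the 5 ligands in vehicle. Both were lowest in vehicle replicate 2 and highest in the replicate 1 library of each group. The mitochondrial share was 12.3%, 4.97% and 10.1% in vehicle and 16.9%, 7.65% and 10.4% in TSA, so it was also lowest in vehicle replicate 2 and highest in the replicate 1 libraries. DLL3 went the other way, highest in replicate 2 and lowest in replicate 1 of each group. Without both replicate 1 libraries NOTCH2 had a log2 fold change of 0.99 (limma adjusted p 0.0087), MAML2 one of −2.43 (9.3e-04) and DLL3 one of −0.51 (0.031). The longest annotated transcripts were 11389 nt for NOTCH2 and 7106 nt for MAML2, against 2332 nt for DLL3 and a median of 2969 nt over tested genes. NOTCH1 and NOTCH3, at 9306 and 8666 nt, had coefficients of variation of 25.3% and 35.4% in vehicle and 31.2% and 9.89% in TSA. Their vehicle values rest on only 40 to 74 and 5 to 12 reads per library, so those 2 vehicle coefficients also hold counting noise. JAG1 and JAG2, at 5940 and 5835 nt, had 6.35% and 5.60% in vehicle and 16.2% and 15.4% in TSA. Over tested genes with an annotated length, library deviations from the group mean had slopes of −0.023 to 0.024 log2 per doubling of length. The part of length in this spread was not tested. With length and GC trends removed the log2 fold changes were 1.58 for NOTCH2, −1.91 for MAML2 and −0.87 for DLL3, each past the test.

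**Figure D4:**
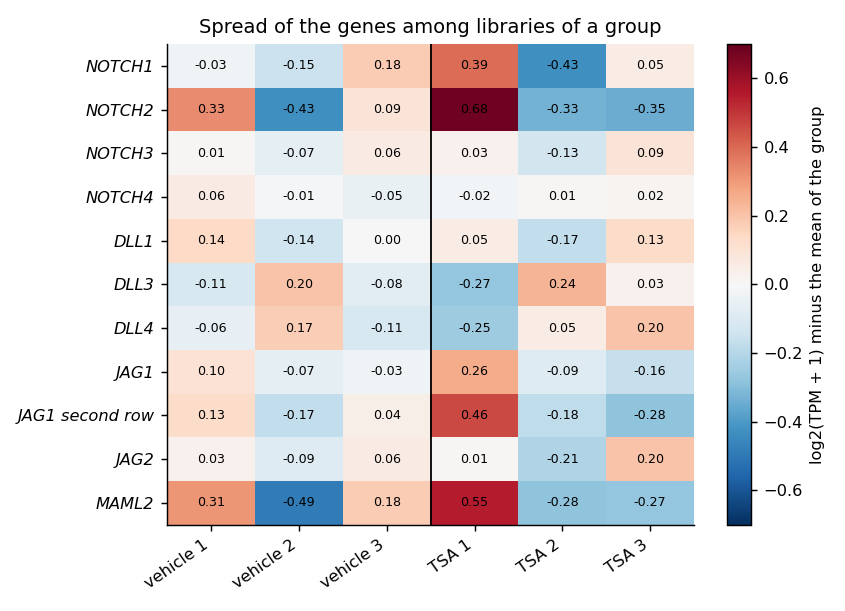
Difference of each library from the mean of its group on the log2(TPM + 1) scale, for the 11 rows (vertical) and 6 libraries (horizontal), red above and blue below the mean. NOTCH2 and MAML2 reach 0.68 and 0.55 in TSA replicate 1 and −0.43 and −0.49 in vehicle replicate 2.

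The authors' deposited table, in which positive values mean higher in TSA, gives the same direction as the TPM means for 11 of 11 rows. Its FDR is under 0.05 for 8 of them, against 41.3% of all its 31814 genes. Those include the many genes under the filter used here, and of the 17596 genes past that filter the limma test called 62.2%. In the authors' deposited table the log2 fold change is 4.60 for NOTCH3, 3.30 for NOTCH1, 1.32 for NOTCH2, −3.35 for DLL1, −2.49 for MAML2 and −1.02 for JAG2. The rows with an FDR over 0.05 in the authors' deposited table are DLL3, DLL4 (0.12) and the other JAG1 row (0.16).

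By a rule of likeness, the genes with a log2(TPM + 1) profile nearest to that of NOTCH1, the gene of the set with the greatest rise in the test, were MICE, CGN and RELL2. The root mean square distance of the centred profiles over 6 libraries was 0.0947, 0.121 and 0.126, against a median of 1.25 over 11695 genes. CGN, which encodes cingulin of tight junctions, went from 3.22 ± 0.660 to 20.1 ± 7.73 TPM. MICE is a transcribed pseudogene in GENCODE 29, so its value of 5.56 ± 1.37 TPM in TSA is uncertain. Nearest to DLL1, with the greatest fall, were DIS3L, TRIM8 and EFCAB2, at distances of 0.0717, 0.103 and 0.104. TRIM8, which encodes a ubiquitin ligase, went from 24.8 ± 0.487 to 2.32 ± 0.264 TPM. Within a distance of 0.2 lay 31 genes for NOTCH1 and 79 for DLL1, so these profiles are shared with many genes.

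The other genes of the pathway were taken from 8 lists with 71 entries, of which 70 were listed and 63 tested. The remaining entry, NEURL1, is the newer symbol of NEURL, which is among the tested genes. Of the 63 genes 16 (25.4%) were higher and 22 (34.9%) lower, with a median log2 fold change of −0.28, near the 28.0% and 34.2% of all tested genes. For ligand uptake, which ubiquitin ligases such as MIB1 start, 3 of 7 were higher and 1 lower. NEURL1B, a ligase of this step, fell from 93.5 ± 10.7 to 43.0 ± 3.52 TPM, and MIB2 and the dynamin gene DNM2 rose by 0.77 and 0.68 on the log2 scale. In the uptake list 2 were lower without limma's variance trend, with the replicate number as a block and with length and GC trends removed. The same count held without vehicle replicate 2, without TSA replicate 1 and without both replicate 1 libraries. Only 2 were higher without TSA replicate 3 and with length and GC trends removed. For receptor cleavage 2 of 9 were higher and 2 lower, or 4 and 3 with length and GC trends removed and 2 and 3 without the variance trend. The gamma-secretase subunit genes NCSTN and APH1A fell to 53.4 ± 0.607 and 127 ± 11.8 TPM from 114 ± 8.51 and 227 ± 16.5 TPM, while PSENEN rose from 99.4 ± 24.3 to 187 ± 28.2 TPM. ADAM10 and ADAM17, the proteases of the first cut, did not pass the test, at log2 fold changes of −0.19 and 0.07.

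For the glycosylation of the receptor 2 of 6 were higher and 2 lower. Only 1 was lower without vehicle replicate 1 or without TSA replicate 3, and 3 were lower with length and GC trends removed. Without TSA replicate 1 or without both replicate 1 libraries 3 were higher. The fringe gene MFNG reached 2.54 ± 0.499 TPM from 0.154 ± 0.157 TPM and so passed the filter only through TSA, POFUT1, the O-fucosyltransferase, rose from 81.1 ± 1.93 to 127 ± 10.4 TPM, and EOGT fell by 0.86 on the log2 scale. For nuclear activation 0 of 7 were higher and 4 lower. RBPJ, the DNA-binding partner of all 4 receptors, fell from 59.5 ± 5.84 to 38.2 ± 5.19 TPM. With length and GC trends removed RBPJ no longer passed (log2 fold change −0.20, limma adjusted p 0.076). The acetyltransferase gene KAT2A fell by 0.97. For corepression 7 of 11 were lower and 0 higher, and the median log2 fold change was −0.99. CTBP2 fell from 33.4 ± 2.28 to 7.80 ± 0.522 TPM, TLE3 from 14.4 ± 0.860 to 4.49 ± 0.188 TPM and NCOR1 from 28.2 ± 7.97 to 10.1 ± 4.45 TPM. These 2 counts with no higher gene were 0 higher in each alternative, with 4 to 5 lower for nuclear activation and 7 lower for corepression. The alternatives use the same libraries, and of all tested genes 28.0% were higher and 34.2% lower. Each of these 2 lists holds few genes, and whether its counts differ from those shares was not tested.

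For turnover and inhibition 5 of 11 were higher and 2 lower, or 7 and 2 with a quantile scaling and 7 and 3 with length and GC trends removed. Without the variance trend 3 were lower, and only 4 were higher without TSA replicate 3. DTX3, a Deltex gene, fell from 53.9 ± 2.82 to 14.8 ± 1.10 TPM, and DTX4 reached 2.59 ± 0.626 TPM from 0.0653 ± 0.0512 TPM, passing the filter only through TSA. SEL1L, a factor of protein quality control in the endoplasmic reticulum, rose from 39.4 ± 5.17 to 90.1 ± 17.2 TPM. For non-canonical ligands 2 of 6 were higher and 3 lower, or 2 and 4 without vehicle replicate 1, without both replicate 1 libraries and with the replicate block. DNER, a transmembrane protein with EGF repeats, was at 1.10 to 1.15 TPM in vehicle and rose to 21.9, 24.6 and 23.6 TPM in TSA (log2 fold change 3.51, limma adjusted p 6.6e-06). DLK2 fell from 14.8 ± 1.83 to 1.88 ± 0.618 TPM and MFAP2 from 16.7 ± 0.751 to 7.08 ± 1.06 TPM. Of 6 tested target repressors 2 were higher and 1 lower, or 2 lower without TSA replicate 3 and with length and GC trends removed. HES1 and HEYL had log2 fold changes of 1.20 and 3.30, HEYL passing the filter only through TSA, and HEY1 fell from 48.0 ± 4.58 to 27.8 ± 2.09 TPM.

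**Figure D5:**
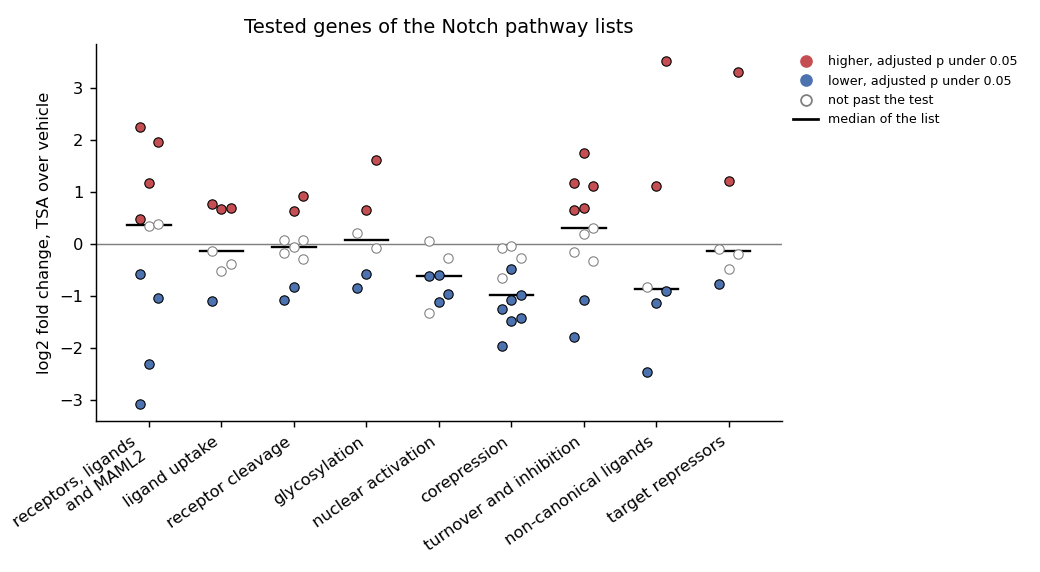
Log2 fold change of each tested gene, TSA over vehicle on the log2(TPM + 1) scale, for the receptors, ligands and MAML2 and for the 8 pathway lists, with the median of each list as a line. Red and blue points passed the test and open points did not. No gene of the nuclear activation and corepression lists is red, and of all tested genes 28.0% were called higher.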

How the data were processed

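Per the labels, poly-A RNA was made into libraries with a stranded kit. The build hg19 and the tools STAR 2.5.3a, featureCounts, edgeR, Picard 1.127 and FastQC 0.11.2 stand, without roles, in the submitters' processing notes. Strand setting of the counting: not given in the sources used here. The authors deposited TPM, and a table with log2 fold changes, mean log2 CPM, a likelihood ratio score, p-values and FDR, per the file headers.

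For each gene the smallest set of whole reads matching its TPM ratios between libraries was taken (found for 100% of 27644 genes, relative tolerance 1e-09), times a common factor set from the deposited mean log2 CPM for 687 genes. Pairs of libraries differed by more than sampling noise (chi-square per degree of freedom 7.98 to 105.41). limma 3.58.1 in R 4.3.3 (trend, two-sided) was used as the report states. The fit was also run on simulated libraries in which only a small part of the genes, all with many reads, changed. That run does not stand for low genes or for data in which most genes change. Fold changes on the log2(TPM + 1) scale understate the change of low genes. Figures were drawn with matplotlib 3.10.9.

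The genes, lists and tests were chosen with earlier results of these data known. Named beside the 10 genes were NOTCH2NL, for each pathway list the 3 genes with the greatest change past the test (where fewer than 2 passed, the 2 with the highest TPM), and the 3 nearest profiles (5 TPM or more in the higher group). Single values of other list genes, AL512356.1 and the cell type markers named were chosen after their values were seen. PECAM1 was not analysed here. Alternatives were other pseudocounts, filters, scalings and variance models, a replicate block, left-out libraries, voom, removed length and GC trends (GENCODE 29, 94.8% of genes matched) and no mitochondrial genes.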

Additional observations from a re-analysis of the deposited data

How the results depend on the processing

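Over 19 alternative settings, and 1 more for JAG1, no named gene past the test changed direction. For the tested rows 178 values kept their direction and their side of the threshold, 7 lost the call and 3 gained it. For the other named genes 583 values kept it and 1, that of RBPJ, lost it. Leaving out each library gave 2 to 5 higher and 3 to 4 lower rows, with the 2 higher rows without vehicle replicate 3, where NOTCH2 and JAG1 ended. A median-of-ratios scaling and voom each gave 5 higher and 3 lower rows. The cause of these changes was not tested.

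Replicate numbers are shared between the groups, but nothing ties a vehicle library to a TSA library of the same number. Deviations from the group means correlated at 0.63, 0.59 and −0.07 for numbers 1, 2 and 3, and library 3 of vehicle did not correlate best with its own number. With the replicate number as a block 4 rows were higher and 4 lower, and over all genes 5637 were higher and 6848 lower, against 4929 and 6013. Under the block 2 genes were lower, rather than 1, in both the ligand uptake and the target lists. The 5 to 12 reads per vehicle library for NOTCH3 and 8 to 10 per TSA library for NOTCH4 limit the precision of their ratios.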
